A study of Mus musculus with 4 samples.

Results

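Meiotic cohesin and synapsis genes were described across the H3K4me3, CTCF and RAD21 peak lists of Bruce-4 cells, a mouse embryonic stem cell line of C57BL/6J genotype. The set comprised 10 of the 21627 protein-coding genes on the autosomes and X chromosome, namely Rec8, Smc1b, Stag3, Rad21l, Sycp1, Sycp2, Sycp3, Hormad1, Ctcfl and Dazl. They were chosen by name, as germline genes that are mostly silent outside meiosis, and every called peak in the gene or within 20 kb on either side was taken. No modification or treatment of the cells is named in the labels. All libraries came from cells grown in serum/2i/LIF medium, with 10000000 cells fixed in 1% formaldehyde for 10 min, and were made by ChIP-exo, in which an exonuclease trims immunoprecipitated DNA close to the bound protein. The 4 libraries were 1 for H3K4me3, 2 for CTCF and 1 for RAD21, and 1 peak list was analysed for each antibody, that of CTCF being named a union, without a statement of whether it joins both CTCF libraries. The lists held positions without height, so depth was unknown, no replicate spread could be measured, and the intervals given below are Wilson 95% intervals that cover counting error only. Peaks in the lists numbered 21600 for H3K4me3 (median length 682 bp), 51737 for CTCF (104 bp) and 75897 for RAD21 (140 bp).

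Cohesin is a ring of SMC proteins closed by a kleisin subunit and bound by a STAG protein, and CTCF is the DNA-binding protein at which it often halts. In meiosis several subunits are replaced by germline forms, and cohesin then builds the chromosome axis on which homologous chromosomes are joined by the synaptonemal complex. In embryonic stem cells many of these germline genes are held silent by DNA methylation and by a Polycomb complex that holds E2F6 and the MGA-MAX dimer. H3K4me3 is a histone mark of active or poised promoters, and a peak shows occupancy and not transcription.

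The labelled cell type was checked by H3K4me3 within 1 kb of gene starts. For comparison, 59.0% of protein-coding genes carried it. All 10 stem cell marker genes tested did (interval 72.2 to 100%), the longest peak being 2792 bp at Nanog. Of 10 fibroblast markers 2 carried it (Thy1 and Twist2, interval 5.67 to 51.0%). Of 8 spermatocyte markers 1 did (Ccna1, a meiotic cyclin, 896 bp, interval 2.24 to 47.1%). The sperm chromatin genes Prm1 and Tnp1 had none.

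The members divided evenly for H3K4me3 at the start. It was called within 1 kb of a start at 5 of 10 (95% interval 23.7 to 76.3%), against 59.0% of protein-coding genes, so the count was near the background. Rec8, Stag3, Sycp1, Sycp3 and Hormad1 had it, and Smc1b, Rad21l, Sycp2, Ctcfl and Dazl did not. CTCF was called at the start of 4 members (interval 16.8 to 68.7%), against 22.9% of protein-coding genes, and RAD21 at 6 (interval 31.3 to 83.2%), against 35.4%. All 3 intervals included the share of protein-coding genes. With all annotated genes as the background, at 15.8% for CTCF and 24.0% for RAD21, the intervals of these 2 lay above it. That set of 49550 also holds genes that are not protein-coding, whereas every member is protein-coding, so it is the less alike background. CTCF and RAD21 without H3K4me3 was the combination at 3 of the 10, Sycp2, Ctcfl and Dazl, while 2.86% of protein-coding genes had it. H3K4me3 alone was found at Stag3, Sycp1 and Hormad1, a combination seen at 24.6% of genes. The remaining members each had a pattern of their own among the 10: Rec8 carried all 3 (15.6% of genes), Sycp3 H3K4me3 and RAD21 (14.9%), Smc1b RAD21 alone (2.05%) and Rad21l none of them (35.6%). No test was made of these counts, since each antibody had 1 list.

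**Figure D1:**
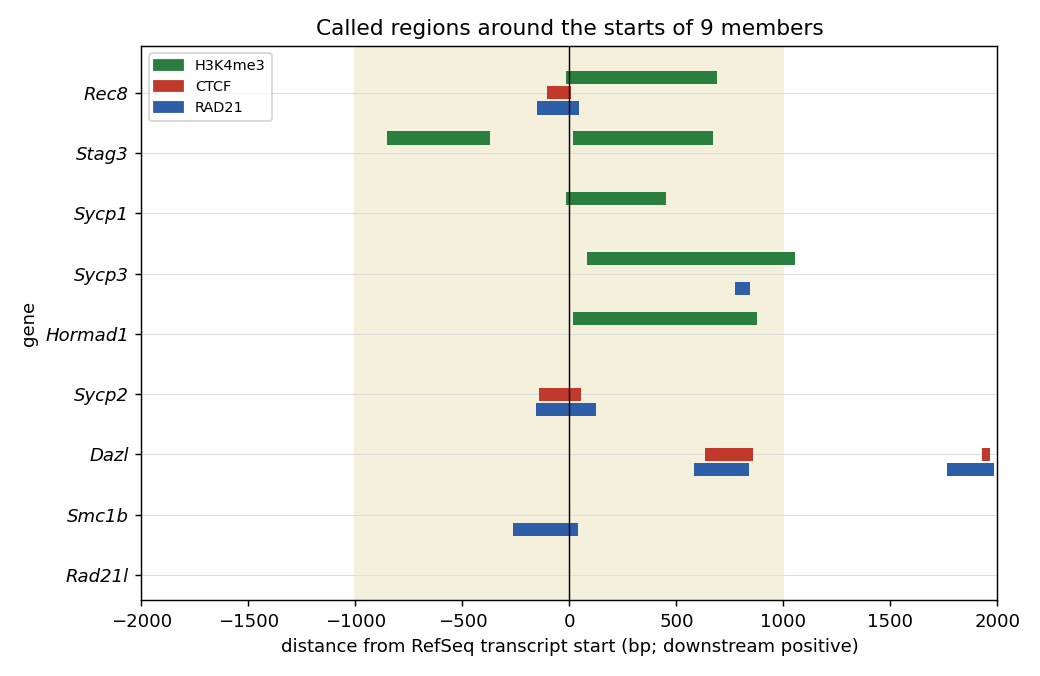
Called regions within 2 kb of the RefSeq transcript start of the 9 members with a listed start, in bp with downstream positive; green bars are H3K4me3, red CTCF and blue RAD21, and the shaded band is 1 kb either side. H3K4me3 lies almost wholly downstream of the start in Rec8, Sycp1, Sycp3 and Hormad1, and CTCF with RAD21 spans the start in Rec8 and Sycp2.

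Among the cohesin subunits, Rec8 was the only member with all 3 at its start. Rec8 encodes a meiotic kleisin that takes the place of RAD21 and lies at chr14:55618002-55625395 (mm10), on the plus strand. A 114 bp CTCF peak reached from 105 bp upstream of the transcript start to 8 bp downstream, inside a 198 bp RAD21 peak whose midpoint was 6 bp away. The H3K4me3 peak of 705 bp began 16 bp upstream of the start and ended 688 bp downstream. The other kleisin gene, Rad21l (chr2:151644366-151670622, minus strand), had no peak of any list inside the gene. Its nearest CTCF and RAD21 peaks, 37 and 187 bp long, lay 7863 and 7818 bp upstream of the start. The H3K4me3 peak in its window, of 593 bp, lay at the start of the neighbouring gene Snph, where CTCF (57 bp) and RAD21 (71 bp) were also called.

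Smc1b, which encodes the meiotic counterpart of SMC1A, had RAD21 at its start with neither CTCF nor H3K4me3. The gene lies at chr15:85064689-85131957 on the minus strand, and Ribc2 begins 102 bp away in the opposite direction. A RAD21 peak of 303 bp, longer than 86.8% of its list, covered all the bases between both genes. No H3K4me3 was called anywhere in the 107 kb of gene and flanks. Inside the gene were 5 more RAD21 peaks of 71 to 163 bp, 2 of them with CTCF peaks of 394 and 47 bp. Stag3 (chr5:138272514-138312397, plus strand), whose product replaces STAG1 and STAG2 in meiosis, had H3K4me3 at its listed start without RAD21 or CTCF. That start, at 138280509, lies inside the annotated gene. A 128 bp RAD21 peak, without CTCF or H3K4me3, lay 7745 bp upstream of it, within 1 kb of the gene end at 138272514. A 650 bp H3K4me3 peak ran from 19 to 668 bp downstream of the listed start, and a second of 482 bp lay 371 to 852 bp upstream, at the start of the divergent gene Gpc2. Both H3K4me3 peaks lay within 1 kb of the Stag3 and Gpc2 starts, so they cannot be assigned to either gene by position. Neither peak overlapped CTCF or RAD21. Paired CTCF and RAD21 peaks lay farther inside Stag3, 3172 and 7495 bp downstream for CTCF (96 and 94 bp long).

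The synaptonemal complex genes were likewise split for H3K4me3. Sycp1 encodes the filament that bridges the paired axes (chr3:102818499-102936100, minus strand). Its H3K4me3 peak was 467 bp, from 18 bp upstream to 448 bp downstream of the start, and shorter than the list median of 682 bp. Sycp3 encodes a protein of the axis core (chr10:88459587-88473236, plus strand). It had the longest H3K4me3 peak at a member's start, 972 bp, from 81 to 1052 bp downstream, with a RAD21 call of 71 bp, the shortest length in that list, inside it. Hormad1 encodes an axis protein that marks unpaired chromosomes (chr3:95559677-95587863, plus strand). Its H3K4me3 peak of 860 bp began 15 bp downstream of the first start, and the gene held neither CTCF nor RAD21. Sycp2 encodes the partner of SYCP3 in the axis (chr2:178345295-178407776, minus strand). In place of H3K4me3 it had a 194 bp CTCF peak from 141 bp upstream to 52 bp downstream of the start, inside a 278 bp RAD21 peak. The nearest H3K4me3, of 656 bp, was 6468 bp upstream, at the starts of Ppp1r3d and Fam217b.

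Neither of the regulators carried H3K4me3. Dazl encodes an RNA-binding protein that germ cells need to enter meiosis (chr17:50279393-50293620, minus strand). All 4 peaks in its window lay in the first 1981 bp of the gene. A 225 bp CTCF peak stood 633 to 857 bp downstream of the start over a 258 bp RAD21 peak, and a 37 bp CTCF peak stood with a 219 bp RAD21 peak farther in. With a window of 500 bp about the start, Dazl no longer counted for either. Ctcfl encodes the germline paralogue of CTCF (chr2:173093609-173119525), and since no start was listed for it both ends were examined. At the higher-coordinate end a 410 bp CTCF peak, longer than 98.3% of its list, overlapped RAD21 peaks of 92 and 128 bp. The gene held 4 CTCF and 4 RAD21 peaks, among them a 288 bp CTCF peak with a 521 bp RAD21 peak. The annotated gene Gm40011 spans all of Ctcfl, so its peaks cannot be assigned to either gene by position.

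The longest H3K4me3 peak at each marked member lay mainly on the transcribed side of the start. Of the 5 members with H3K4me3, 5 had at least 95% of the longest such peak downstream: the whole peak at Stag3, Sycp3 and Hormad1, 97.7% at Rec8 and 96.1% at Sycp1. Among 10289 protein-coding genes with a listed start and H3K4me3 there, 36.7% did, and the median was 84.5% (lower quartile 55.5%). The second, shorter peak at Stag3, 482 bp at the Gpc2 start, was wholly upstream and is not counted here. The limit of 95% was set after the positions had been seen. The median length of these peaks was 705 bp in the members and 930 bp over all those genes.

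The promoters were then compared by sequence, using the RefSeq table of GRCm38.p6, which gives 250 bases before and 50 after each start. It held 9 of the 10 members. The counts of CG dinucleotides, the substrate of DNA methylation, were 30 in Stag3, 29 in Smc1b, 28 in Dazl, 24 in Hormad1, 21 in Sycp1, 18 in Rec8, 15 in Sycp3, 10 in Sycp2 and 2 in Rad21l. H3K4me3 followed this order in most members but not at Smc1b and Dazl. Of promoters within 2 CG of the Smc1b count, 94.4% had H3K4me3 within 1 kb, and for Dazl the figure was 94.0%. For Sycp2 it was 46.7% and for Rad21l 4.61%. Counting every promoter with 20 or more CG, 5.94% of 8699 lacked the mark, though a gene can have several promoters. Counted by gene, at its highest CG count and with no promoter marked, it was 2 of the 5 members with so many. The same count was 5 of 13 among other meiotic prophase genes and 4 of 12 among other germline genes with a listed promoter. These lists were chosen with earlier results of the data known.

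**Figure D2:**
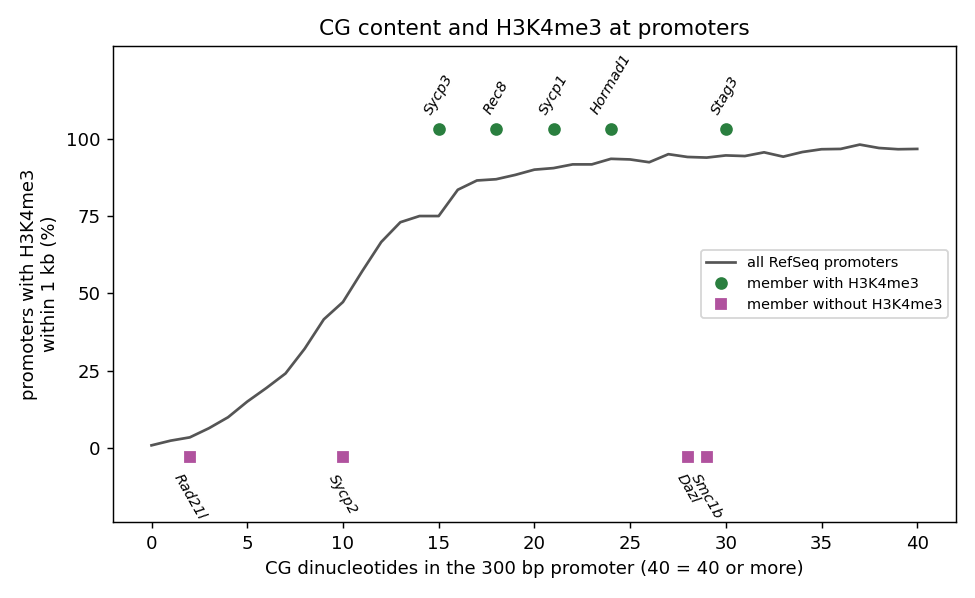
Share of RefSeq promoters with H3K4me3 within 1 kb (grey line, percent) against the number of CG dinucleotides in the 300 bp promoter, with counts of 40 or more joined. The 9 members with a listed promoter are set above the line's range if they had H3K4me3 (green circles) and below it if not (purple squares); Dazl (28 CG) and Smc1b (29 CG) lie at the bottom where over 90 percent of promoters are marked.

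The bases upstream of both starts are shown because they are rich in CG and yet lacked H3K4me3, with CG in capitals. The Smc1b stretch (chr15:85131958-85132059, minus strand, GRCm38.p6) is the 102 bp between Smc1b and Ribc2, with 12 CG, all of it under the RAD21 peak. The Dazl stretch (chr17:50293621-50293870, minus strand) is the 250 bases before its start, with 20 CG and under no peak.
Smc1b: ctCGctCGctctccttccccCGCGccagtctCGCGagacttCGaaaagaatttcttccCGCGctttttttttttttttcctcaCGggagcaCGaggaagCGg
Dazl: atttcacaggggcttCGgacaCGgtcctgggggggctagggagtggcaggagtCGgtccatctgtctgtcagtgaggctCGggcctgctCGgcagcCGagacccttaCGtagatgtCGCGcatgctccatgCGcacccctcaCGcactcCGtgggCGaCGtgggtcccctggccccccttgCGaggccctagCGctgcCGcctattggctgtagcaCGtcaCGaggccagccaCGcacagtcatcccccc

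Sites for factors of the germline-silencing complex were searched on both strands as CACGTG, the E-box bound by MGA and MAX, and GCGGGAA, an E2F site. The E-box was in the promoters of 4 of the 5 members with H3K4me3 (Stag3, Sycp1, Sycp3 and Hormad1) and of 0 of the 4 without it, while 7.2% of 32619 promoters held it. Sycp3 and Hormad1 had 2 each. Other germline genes did not divide in this way by count. The E-box was in 6 of 11 other germline genes with H3K4me3 and 7 of 12 without, and in 3 of 21 and 3 of 9 other meiotic prophase genes. Both sequences hold a CG, so the shares over all promoters are not matched for CG content. Those shares also count promoters, whereas the counts for members and gene lists are of genes with a match in any promoter. The 5 members with H3K4me3 had 15 or more CG, while Sycp2 and Rad21l had 10 and 2. Of promoters with 15 or more CG, 1287 held the E-box and 10087 did not. H3K4me3 was at 90.3% of those with the E-box and 91.9% of those without. The E2F site was in 4 members, with H3K4me3 at Stag3, Sycp3 and Hormad1 and without it at Smc1b, against 4.63% of promoters. Of promoters with 15 or more CG, 1174 held the E2F site and 10200 did not, with H3K4me3 at 92.5% and 91.6% of them. The E2F site was also in 7 of 21 other meiotic prophase genes with H3K4me3 and 5 of 9 without. For other germline genes the counts were 4 of 11 and 1 of 12.

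The stretches that hold the E-boxes are printed from the gene strand with both kinds of match in capitals. Those of Sycp3 (chr10:88459427-88459586, plus strand), Hormad1 (chr3:95559577-95559676, plus strand) and Sycp1 (chr3:102936101-102936200, minus strand) end at the base before the start, and that of Stag3 (chr5:138280327-138280356, plus strand) surrounds an E-box 170 bp upstream. None of the 4 stretches lay under CTCF or RAD21.
Sycp3: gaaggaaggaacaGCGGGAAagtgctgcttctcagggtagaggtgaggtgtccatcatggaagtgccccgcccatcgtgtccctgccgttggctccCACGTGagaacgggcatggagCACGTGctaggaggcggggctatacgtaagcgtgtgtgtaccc
Hormad1: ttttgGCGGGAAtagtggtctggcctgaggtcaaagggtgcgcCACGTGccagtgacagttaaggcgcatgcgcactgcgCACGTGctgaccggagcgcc
Sycp1: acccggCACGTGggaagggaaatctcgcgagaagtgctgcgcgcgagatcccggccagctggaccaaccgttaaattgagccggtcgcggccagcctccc
Stag3: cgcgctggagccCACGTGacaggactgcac

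A core of the CTCF motif, searched on both strands as CCA, AG and GGC separated by gaps of 2 free bases, was in 2.44% of all promoters, in 302 of 2519 with a CTCF peak and in 495 of 30100 without. Of the members with a listed promoter, Sycp2 and Dazl held it. At Sycp2 the match stood 96 bp upstream of the start on the opposite strand, within the CTCF peak, and 30 bases around it (chr2:178407734-178407763, minus strand) are shown with the match in capitals.
Sycp2: cggcacagcGCCCCCTGCTGGcaggcggtt
At Dazl the match began 54 bp upstream of the start, where no CTCF was called. The Rec8 promoter held no match, although a CTCF peak covered its start.

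In the genes and flanks together there were 14 H3K4me3, 29 CTCF and 46 RAD21 peaks over 802.9 kb. Every member had at least 1 RAD21 peak in its window (86.9% of protein-coding genes did), 9 had CTCF (79.7%) and 7 had H3K4me3 (73.8%). Hormad1 was the member without CTCF, and Smc1b, Ctcfl and Dazl were those without H3K4me3. The median density over members was 3.35 CTCF peaks per 100 kb, against 3.56 for all protein-coding genes, and 5.39 RAD21 peaks, against 4.77. For H3K4me3 it was 1.24 peaks per 100 kb, against 1.96. Ctcfl had the densest RAD21 window, with 12.1 peaks per 100 kb, at or above 95.7% of genes, and Rec8 followed with 10.5. Hormad1 had 1.47, the lowest of the members. For H3K4me3, 8 of the 14 peaks lay in flanks, and each of these 8 was within 1 kb of a start or end of a neighbouring gene, such as Irf9 and Tm9sf1 beside Rec8, Lamtor4 beside Stag3 and Golph3l beside Hormad1.

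**Figure D3:**
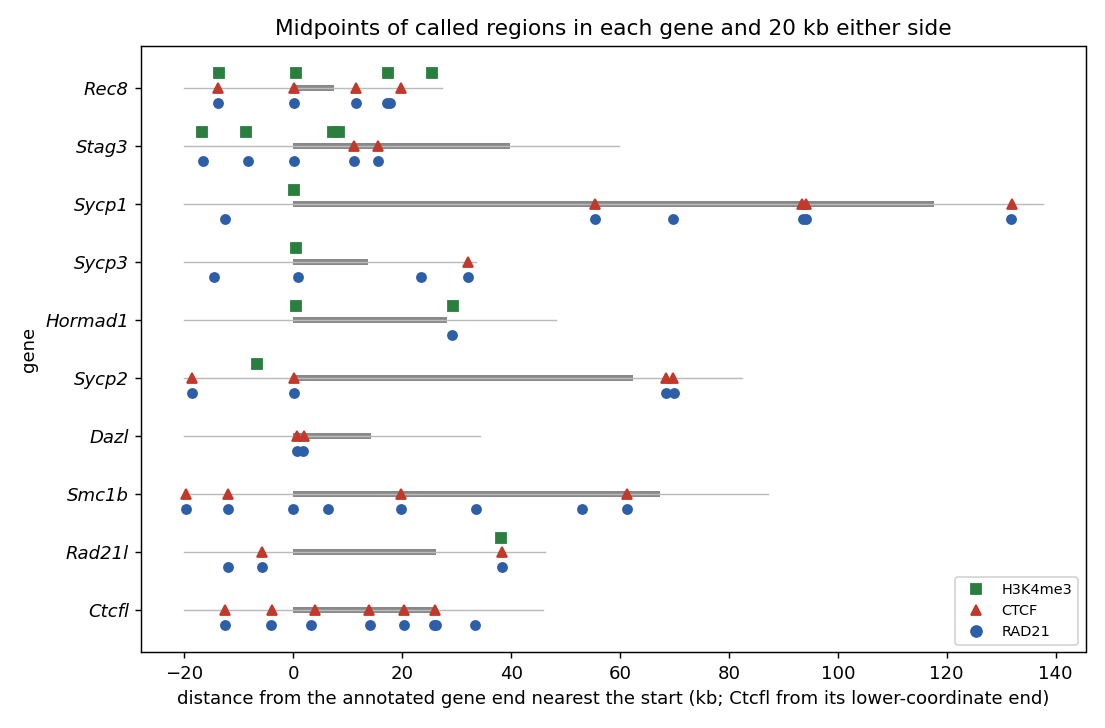
Midpoints of the called regions of each member (squares H3K4me3, triangles CTCF, circles RAD21) in kb from the annotated gene end nearest the start, with thick grey bars for genes and thin lines for the 20 kb flanks. Ctcfl, for which no start was listed, is drawn from its lower-coordinate end. CTCF and RAD21 stand together at 27 of 29 CTCF peaks, and Rad21l has no called region within the gene.

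CTCF peaks at these loci lay mostly on RAD21. Of 29, 27 overlapped a RAD21 peak (93.1%, interval 78.0 to 98.1%), and 81.9% did over the whole CTCF list. The exceptions were a 342 bp peak in Ctcfl and a 39 bp peak downstream of Rec8. Midpoints of the overlapping peaks were 30 bp apart in the median (3 bp to 165.5 bp). Of 46 RAD21 peaks 28 overlapped CTCF (60.9%, interval 46.5 to 73.6%; 55.9% over the whole list), 6 lay on H3K4me3 without CTCF and 12 on neither. In these windows RAD21 peaks with CTCF had a median length of 189.5 bp and those without it 107.5 bp. The same medians over the whole list are not given here. The intervals for CTCF on RAD21 and for RAD21 on CTCF both included the share of the whole list. Of the 14 H3K4me3 peaks 8 overlapped RAD21 (57.1%, interval 32.6 to 78.6%), above the 31.5% of the whole list. Of these 8, 2 were at the starts of Rec8 and Sycp3, and the other 6 lay in flanks at neighbouring genes. The interval treats the peaks as independent, but the Rec8 and Stag3 windows held 4 of the 14 each.

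The genes for mitotic cohesin, CTCF and their regulators were set beside the members. H3K4me3 was at the start of 14 of 16 (87.5%, interval 64.0 to 96.5%, against 59.0% of protein-coding genes), CTCF at 8 (interval 28.0 to 72.0%, against 22.9%) and RAD21 at 11 (68.8%, interval 44.4 to 85.8%, against 35.4%). All 3 intervals lay above the share of protein-coding genes. Smc1a, the somatic counterpart of Smc1b, had a 516 bp H3K4me3 peak with RAD21, so both genes had RAD21 without CTCF and differed in H3K4me3. Stag1 and Stag2 had all 3, with H3K4me3 of 1154 and 784 bp, where Stag3 had H3K4me3 alone at its listed start. Ctcf had all 3, with 1262 bp of H3K4me3, where Ctcfl lacked H3K4me3. Rad21 and Nipbl were the 2 without H3K4me3. No start was listed for either, so only their ends were examined. A 1293 bp H3K4me3 peak lay inside Rad21, 1829 bp from an end, and the nearest one to an end of Nipbl was a 644 bp peak inside the gene, 19885 bp away. Other meiotic prophase genes had H3K4me3 at 24 of 38, CTCF at 9 and RAD21 at 17 (63.2, 23.7 and 44.7%). Psmc3ip and Trip13, which act in meiotic recombination, had the longest H3K4me3 peaks of that list, 1248 and 1154 bp, and Bhmg1 and Majin had none. Other germline genes had H3K4me3 at 16 of 30, CTCF at 4 and RAD21 at 8 (53.3, 13.3 and 26.7%). In both lists all intervals included the share of protein-coding genes. The longest were at Zfp42 (1711 bp), also a stem cell marker, and Tex14 (1508 bp), and Asz1 and Figla had none.

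**Figure D4:**
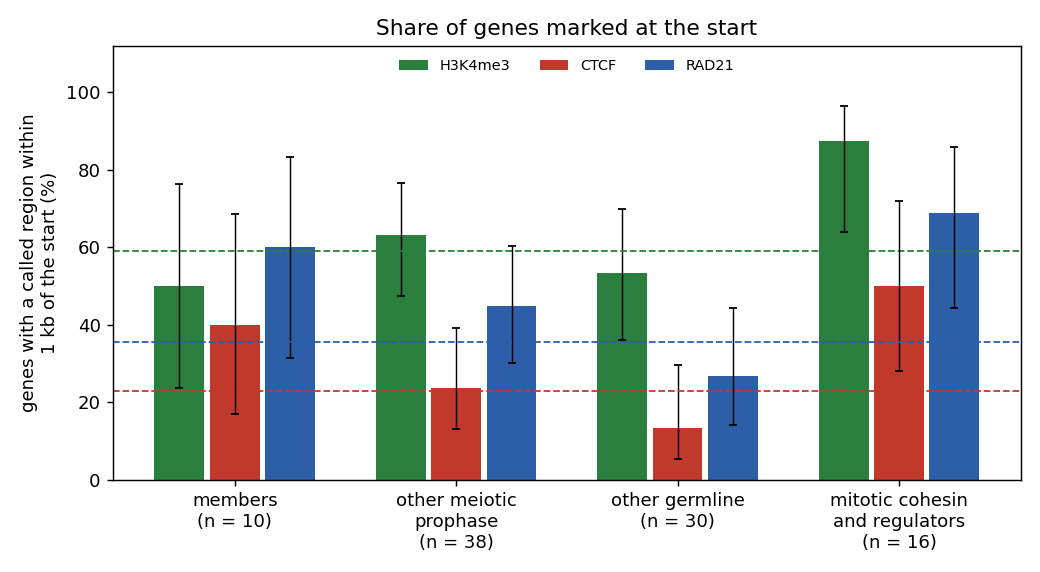
Percent of genes with H3K4me3 (green), CTCF (red) or RAD21 (blue) called within 1 kb of the start, for the 10 members, 38 other meiotic prophase genes, 30 other germline genes and 16 genes of mitotic cohesin and its regulators. Error bars are Wilson 95% intervals and dashed lines the share of all protein-coding genes; the members' intervals include the dashed line of each mark.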

How the data were processed

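Bruce-4 ChIP-exo peak lists for H3K4me3, CTCF and RAD21 were used as deposited, each a chromosome, start and end in bp; the only quantities are position and length. The submitters' processing notes name MACS2, bedtools 2.30.0, Picard 2.27.4 and Bowtie2 2.4.5 with the build mm10, but no steps. What threshold was set, and whether a control library was used, is not given in the sources used here. CTCF replicate 2 holds the deposited CTCF file, a union by its name, and replicate 1 had no list analysed here. The 19 autosomes and X were kept (24, 56 and 124 rows left out).

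Gene ends, transcript starts, strands and promoters came from RefSeq tables of GRCm38.p6, of which mm10 is another name. The start of a gene was each listed start (17273 protein-coding genes), or either end where none was listed. Exons and introns were not analysed here. A peak counted at a start within 1 kb, and an overlap was at least 1 bp. Python 3.11.15, numpy 2.4.6, pandas 2.3.3 and scipy 1.17.1 were used, with matplotlib 3.10.9 for figures. The counting code was tested on simulated peaks planted at starts and against bedtools. No test between groups was made.

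The members, gene lists and motifs were chosen with earlier results of these data known. All members are named; of each list the 2 genes with the longest H3K4me3 peak at the start and the first 2 alphabetically without one are named, with markers, members' counterparts and neighbours, and further names complete counts of 5 or fewer. Alternatives varied the start window, flank, overlap, peaks kept and background genes.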

Additional observations from a re-analysis of the deposited data

How the results depend on the processing

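No paired analysis was possible because each antibody had 1 peak list and no comparison rests on a test; for the same reason no replicate could be left out. Of 59 alternative values, 39 stayed within 1.5 times the count or within the interval of the share. Restricted to the longer peaks (over the list's median length), H3K4me3 was at the start of 3 members (Stag3 and Sycp1 dropped out) and in the windows of 4. The windows then held 6 H3K4me3, 17 CTCF and 23 RAD21 peaks, and 70.6% of CTCF peaks overlapped RAD21. Both lists were cut for that overlap, so shorter RAD21 peaks were also lost as partners. The share of the whole CTCF list under the same cut is not given here. Longer peaks alone also left RAD21 at the start of 4 members, Sycp3 and Ctcfl no longer counting. A start window of 500 bp likewise left RAD21 at 4, without Sycp3 and Dazl, and CTCF at 3, without Dazl. With either annotated end in place of the listed start, 4 members had H3K4me3, Stag3 no longer counting, and 8 had RAD21, Stag3 and Hormad1 being added. The number of peaks followed the flank by construction. For H3K4me3 it was 6 with no flank, 7 with 5 kb and 27 with 50 kb, for CTCF 15, 17 and 54, and for RAD21 22, 26 and 79. Against all genes in place of protein-coding genes, the background at starts was 32.5% for H3K4me3, 15.8% for CTCF and 24.0% for RAD21; against protein-coding genes with a listed start only, an alternative chosen after seeing the data, it was 21.6% for CTCF and 34.4% for RAD21. Leaving out the shortest calls (CTCF up to 39 bp, RAD21 of 71 bp), also chosen after seeing the data, left RAD21 at the start of 5 members, Sycp3 no longer counting. With depth unknown a weak site cannot be told from an unbound one.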

Other observations

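The genes of the Polycomb complex known to silence germline genes, of its chromatin partners and of DNA methylation were themselves marked. H3K4me3 was at the start of 20 of 20 (59.0% of protein-coding genes), the longest peaks being at Wdr5 (1819 bp), which encodes a histone methylation cofactor, and Cbx3 (1599 bp), which encodes a heterochromatin protein. CTCF was at 6 of them (interval 14.5 to 51.9%, against 22.9% of protein-coding genes). RAD21 was at 5 (interval 11.2 to 46.9%, against 35.4%). Both of these intervals included the share of protein-coding genes.

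The germline genes outside the members that had 20 or more CG in the promoter and no H3K4me3, like Dazl and Smc1b, were Bhmg1, Msh5, Rnf212, Spata22 and Tex12 among meiotic prophase genes and Mael, Mov10l1, Slc25a31 and Tdrd1 among the others, all named after their values were seen. Of these, Tex12 encodes a central element protein of the synaptonemal complex and Mael a protein of the piRNA pathway.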
